A study of Arabidopsis thaliana with 4 samples.

Results

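The members described are the 8 Arabidopsis thaliana loci of the TAS3 branch of RNA silencing, taken by locus identifier from a table of 33602 loci. They are the siRNA precursors TAS3A (AT3G17185), TAS3B (AT5G49615) and TAS3C (AT5G57735), the microRNA genes MIR390A (AT2G38325) and MIR390B (AT5G58465), and the targets ARF2 (AT5G62000), ARF3 (AT2G33860, also named ETTIN) and ARF4 (AT5G60450). Small RNA below 200 nt came from aerial tissue of 18-day-old plants of 4 genotypes, with 1 library each. Col-0 is the wild type. The double mutant, ein5-1 ski2-3, carries mutations in EIN5, a cytoplasmic 5′ to 3′ exonuclease of mRNA, and in SKI2, a helicase that helps the cytoplasmic exosome degrade RNA from its 3′ end. In rdr6-11 the mutated gene is RDR6, the RNA-dependent RNA polymerase that makes siRNA precursors double-stranded, and the triple mutant, rdr6-11 ein5-1 ski2-3, combines all of these alleles. The sources used here do not give the number of plants in a library. The comparisons ask how small RNA reads at these loci changed when mRNA decay was impaired and when RDR6 was mutated. The counts do not separate siRNAs from degradation fragments.

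In this branch, miR390 guides the Argonaute protein AGO7 to a TAS3 transcript. RDR6 and its partner SGS3 copy the transcript into double-stranded RNA, and the Dicer enzyme DCL4 cuts that RNA into phased trans-acting siRNAs. The siRNAs known as tasiARFs pair with the mRNAs of ARF2, ARF3 and ARF4, which encode auxin response factors, and lower their levels. In leaves the branch is known for setting the timing of the juvenile-to-adult transition and for upper and lower leaf polarity.

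The sequences that tie the members together are shown first. They were read from the RefSeq copy of the TAIR10.1 genome by its own annotation, and all coordinates are of that build. The deposited table gives no coordinates, and TAIR9 is the build named in the submitters' processing notes. The mature miR390 strands are printed 5′ to 3′ as DNA, with bases 2 to 8, the seed, in capitals.

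miR390a-5p (chr2:16061971-16061991, plus strand): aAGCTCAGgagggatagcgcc

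miR390b-5p (chr5:23636961-23636981, plus strand): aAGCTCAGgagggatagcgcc

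miR390a-3p (chr2:16062023-16062043, plus strand): cGCTATCCatcctgagtttca

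miR390b-3p (chr5:23637034-23637053, plus strand): cGCTATCCatcctgagttcc

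The 5p strands of the 2 genes were identical over all 21 nt, and this sequence occurred in the genome at 2 places only, 1 in each gene. A read of mature miR390 thus matches both loci equally well. How such reads were assigned is not given in the sources used here, so the MIR390A and MIR390B values cannot be taken as separate measurements.

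The pair of 21-nt stretches that match miR390 best was taken in each TAS3 locus, an upstream 5′ site and a downstream 3′ site. A pair was thus set by the choice. With 1 point for a mismatch and 0.5 for a G:U pair, the sites scored 3 and 5 in TAS3A, 3 and 6.5 in TAS3B, and 4 and 3 in TAS3C. The next best stretches scored 7.5, 7 and 9, so the TAS3B 3′ site stood out little. Capitals mark the bases that pair with miR390 by Watson-Crick pairing, which shows how the sites differ in the middle of the duplex.

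TAS3A 5′ site (chr3:5862099-5862119, plus strand): GGtGtTATCCtatCTGAGCTT

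TAS3A 3′ site (chr3:5862343-5862363, plus strand): ttgtCTATCCCTCCTGAGCTa

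TAS3B 5′ site (chr5:20134458-20134478, plus strand): GaCGCTATCttaCCTGAGCTT

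TAS3B 3′ site (chr5:20134674-20134694, plus strand): ttatgTATCCCTCtTGAGCTg

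TAS3C 5′ site (chr5:23394221-23394241, plus strand): GGCatTATCCtcgCTGAGCTT

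TAS3C 3′ site (chr5:23394422-23394442, plus strand): GtttCTATtCCTCCTGAGCTT

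Opposite miR390 bases 9 to 11, where Argonaute cutting takes place, the 3′ site had Watson-Crick pairs at 3 of 3 bases in all 3 loci. There the 5′ site had 0 Watson-Crick and 2 G:U pairs in TAS3A, 1 of each in TAS3B, and 0 Watson-Crick and 1 G:U pair in TAS3C. In Arabidopsis the 3′ site of TAS3A is known to be cut, and the 5′ site to be bound by AGO7 without being cut.

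The stretch of TAS3A from the 5′ site to the 3′ site (265 bases, chr3:5862099-5862363, plus strand) is the part from which tasiARFs are made. In it both miR390 sites and the tandem tasiARF windows between them are in capitals.

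TAS3A stretch: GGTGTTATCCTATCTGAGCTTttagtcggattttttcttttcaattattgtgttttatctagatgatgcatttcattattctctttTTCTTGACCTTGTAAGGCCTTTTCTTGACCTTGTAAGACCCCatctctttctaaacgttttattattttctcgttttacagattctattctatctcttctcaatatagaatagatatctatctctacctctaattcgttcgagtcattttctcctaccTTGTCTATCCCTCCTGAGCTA

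The windows that pair with the ARF genes were found by complementarity and are aligned here, with bases identical in all of them in capitals.

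TAS3A window 1 (chr3:5862185-5862205, plus strand): TTCTTGACCTTGtAAGgCctt

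TAS3A window 2 (chr3:5862206-5862226, plus strand): TTCTTGACCTTGtAAGaCccc

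TAS3B window (chr5:20134514-20134534, plus strand): TTCTTGACCTTGtAAGaCctt

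TAS3C window (chr5:23394328-23394348, plus strand): TTCTTGACCTTGcAAGgCtta

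Of 21 positions 16 were identical in all the windows, which the choice by complementarity favours. A register of 21-nt steps was counted back from the cut expected in the 3′ site, between the bases opposite miR390 bases 10 and 11. The windows ended 1 nt before a step of it in TAS3A, 3 nt before in TAS3B and 0 nt before in TAS3C. TAS3A is the locus with a pair of windows, and the others have 1 each.

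The partner sites in the ARF genes all lay in coding exons. Capitals mark the 19 bases that all of these sites share.

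ARF2 site (chr5:24913262-24913282, plus strand): gGGTCTTGCAAGGTCAAGAAt

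ARF3 site 1 (chr2:14325941-14325961, minus strand): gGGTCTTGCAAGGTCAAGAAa

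ARF3 site 2 (chr2:14325821-14325841, minus strand): aGGTCTTGCAAGGTCAAGAAa

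ARF4 site 1 (chr5:24309717-24309737, minus strand): aGGTCTTGCAAGGTCAAGAAa

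ARF4 site 2 (chr5:24309507-24309527, minus strand): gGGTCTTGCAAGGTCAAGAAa

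ARF2 had 1 such site, and ARF3 and ARF4 had 2 each. Over the 19 shared bases each TAS3 window paired with 0 mismatches when G:U pairs are allowed. The windows were chosen by this rule, so that pairing was fixed in advance. Searched over 38094 annotated genes, GGTCTTGCAAGGTCAAGAA was found on the sense strand of 3 genes (0.00788%), which were ARF2, ARF3 and ARF4, and on the antisense strand of 0. Its presence in these 3 genes was fixed in advance, as it was taken from their sites. Only exact matches were searched over all genes, so the share does not measure how specific the pairing is. A match is a description of sequence and not a measurement of pairing or cutting.

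**Figure D1:**
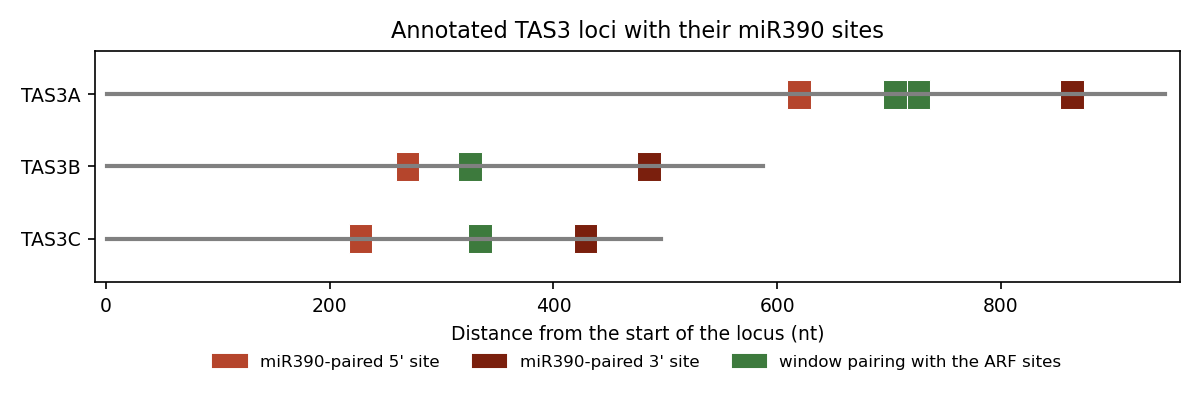
Position of the miR390 sites and of the windows that pair with ARF2, ARF3 and ARF4 along TAS3A, TAS3B and TAS3C, in nt from the start of each annotated locus (grey line). In each locus the windows (green) lie between the 5′ site and the 3′ site, which start at positions 609 and 853 in TAS3A, 259 and 475 in TAS3B, and 217 and 418 in TAS3C.

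Table totals were 808276 reads (Col-0), 621515 (double mutant), 878632 (rdr6-11) and 877589 (triple mutant). Counts were scaled to these totals as reads per 1000000 reads (RPM), at which 1 read was worth 1.14 to 1.61 RPM. Reads at 4 genes of green tissue were present in every library (300 to 948 reads in sum), against 0 to 2 reads at 4 root genes and 0 to 11 at 4 flower genes. RDR6, EIN5 and SKI2 held 0 to 4 reads each and cannot check the genotype labels. Organelle loci took 10.04% and 10.5% of the reads in Col-0 and the double mutant, and 22.1% and 28.3% in rdr6-11 and the triple mutant. Locus lengths implied by the authors' values also fell into these pairs of libraries, with 4830 nt for ARF2 in the first pair and 4832 nt in the second. The lengths of the other members did not differ. A difference in handling between the pairs cannot be told apart from RDR6. Every comparison sets 1 library against 1, with no replicate check. No test was made: an additive fit of the decay mutations and rdr6-11 over the 4 libraries would take as error the interaction between them. Intervals are exact 95% counting intervals that leave out variation between plants. A locus is called higher or lower where the fold of RPM, with 1 read added to each count, reached 4 or more and the library with more had 50 reads or over. All 8 members had reads. The minimum was reached in some library by 5 members, and by 0 of the ARF genes.

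TAS3A, the siRNA precursor with most reads, held 10056 in the wild type, 1995 in ein5-1 ski2-3, 22 in rdr6-11 and 103 in the triple mutant, which is 12441, 3209.9, 25.0 and 117 RPM. Both libraries with wild-type RDR6 were far above both libraries without it. TAS3B held 98, 16, 3 and 2 reads in the same order (121, 25.7, 3.41 and 2.28 RPM). TAS3C held 129, 26, 6 and 4 reads (159.6, 41.8, 6.83 and 4.56 RPM). At all 3 loci Col-0 was highest and the double mutant next, and only TAS3A stood higher in the triple mutant than in rdr6-11. Together they took 1.27% of all reads in the wild type and 0.328% in ein5-1 ski2-3, against 0.00353% and 0.0124% in rdr6-11 and the triple mutant.

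By length, in the authors' RPKM (reads per kilobase of locus and per 1000000 reads), TAS3A stood at 12838 in Col-0, close to MIR390A at 12521 and MIR390B at 10595. TAS3C stood at 315 and TAS3B at 202 RPKM. TAS3A was thus the main TAS3 source per length as well as in reads. TAS3B and TAS3C made up 2.21% of TAS3 reads in the wild type (1.93 to 2.51) and 2.06% in ein5-1 ski2-3 (1.49 to 2.78). In rdr6-11 they were 9 of 31 reads (29.0%, 14.2 to 48.0), and in the triple mutant 6 of 109 (5.50%, 2.05 to 11.6). The share in rdr6-11 lay above that of the RDR6 libraries by more than counting error, on few reads. TAS3A and TAS3B share 1 word of 21 nt, and TAS3C shares no stretch longer than 15 nt with either, so a read of 21 nt could match more than 1 TAS3 locus without mismatch at 1 word only.

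**Figure D2:**
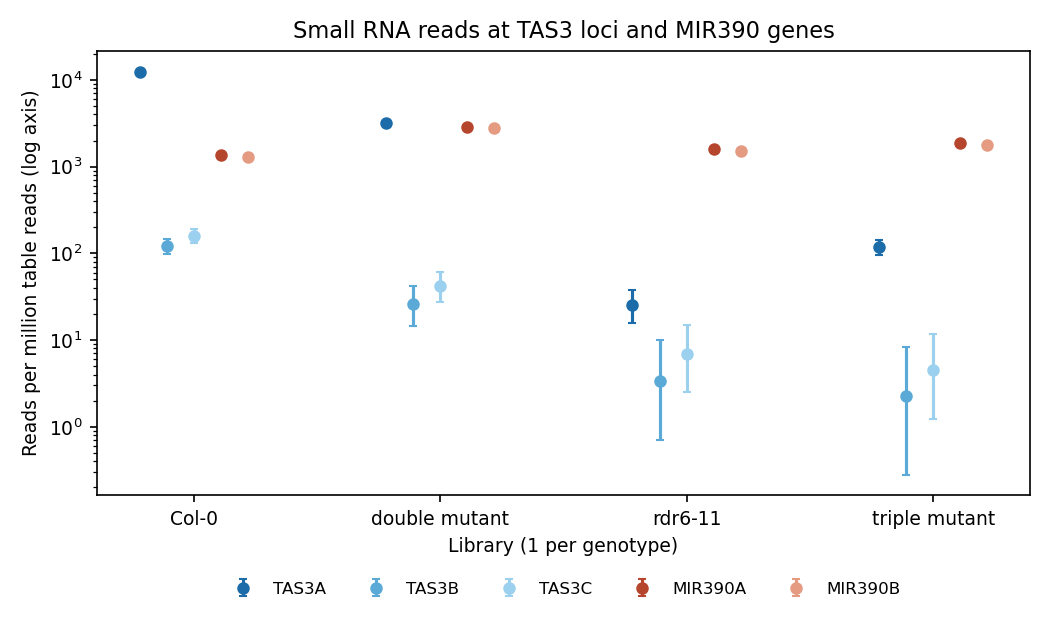
Scaled reads (RPM) at the 3 TAS3 loci and the 2 MIR390 genes in each of the 4 libraries, on a log axis; bars are 95% counting intervals. TAS3 loci stand far lower in rdr6-11 and the triple mutant, with TAS3A at 25.0 and 117 RPM against 12441 in Col-0, while MIR390A stays between 1359.7 and 2846 RPM.

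The miRNA genes that start the branch moved within a narrower range than the TAS3 loci. MIR390A held 1099 reads in the wild type, 1769 in ein5-1 ski2-3, 1418 in rdr6-11 and 1624 in the triple mutant (1359.7, 2846, 1614 and 1851 RPM). MIR390B held 1044, 1730, 1342 and 1542 reads (1292, 2784, 1527 and 1757 RPM). The double mutant was highest and Col-0 lowest at both genes. There were 1.02 to 1.06 MIR390A reads for each MIR390B read in the 4 libraries, and MIR390A took 51.1% (50.2 to 52.0) of the reads of the pair over all libraries. Of reads at miRNA genes the pair took 0.507% in the wild type, 1.05% in ein5-1 ski2-3, 0.690% in rdr6-11 and 1.16% in the triple mutant.

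The first comparison asked how the branch changed when EIN5 and SKI2 were mutated. TAS3A was 3.88-fold lower in the double mutant (3.69 to 4.07), TAS3B 4.71-fold lower (2.76 to 8.56) and TAS3C 3.82-fold lower (2.49 to 6.06), with overlapping intervals. MIR390A went the other way, 2.09-fold higher (1.94 to 2.26), as did MIR390B, 2.16-fold higher (1.99 to 2.33). In bulk tissue, fewer cells that make an RNA and less of it per cell cannot be told apart.

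By the rule of size 1 of the 5 members with 50 reads in either library was called lower, TAS3B, and 0 were called higher. Of the 653 loci with 50 reads in either library 9.04% were called lower and 26.8% higher. TAS3A and TAS3C lay just short of 4-fold, and both were called with median-of-ratios scaling, with TMM scaling and with totals that leave out small RNA and organelle classes. The ratio of TAS3A to MIR390A reads within a library does not depend on scaling. It was 9.15 in the wild type (8.60 to 9.75) and 1.13 in ein5-1 ski2-3 (1.06 to 1.20), an 8.11-fold drop. Among 90 miRNA genes that reached 50 reads 71 were lower and 19 higher, with a median log2 fold of -0.94, against 1.07 for MIR390A, and 6 of the 90 had a larger fold than MIR390A. The other TAS loci with many reads, TAS1A, TAS1B, TAS1C and TAS2, which produce siRNAs after cutting guided by another miRNA, miR173, were 2.25-fold to 3.36-fold lower. TAS4 was called higher, 176-fold (88.8 to 408), from 8 to 1080 reads. TAS3A was 17.4% of the reads of all 8 TAS loci in the wild type (17.1 to 17.7) and 12.8% in ein5-1 ski2-3 (12.3 to 13.4).

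The next comparison set rdr6-11 against Col-0. TAS3A was 497-fold lower (328 to 793), TAS3B 35.5-fold lower (11.8 to 175) and TAS3C 23.4-fold lower (10.4 to 64.9). These 3 of the 5 members with enough reads were called lower and 0 were called higher, while 3.9% of 564 loci were called lower and 1.95% higher. The larger fold of TAS3A than of TAS3B or TAS3C exceeded counting error, as the intervals do not overlap. TAS3B and TAS3C went from 98 and 129 reads in Col-0 to 3 and 6 in rdr6-11. The part of these low counts in the difference was not tested. MIR390A was 1.19-fold higher (1.10 to 1.29) and MIR390B 1.18-fold higher (1.09 to 1.28), against a median log2 fold of -0.17 over 88 miRNA genes. For each MIR390A read there were 0.0155 TAS3A reads (0.00969 to 0.0236). TAS3A was 19.8% of the 111 reads left at TAS loci (12.9 to 28.5), a share whose interval holds the 17.4% of Col-0.

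Without RDR6 in the decay mutant background, the triple mutant was set against the double mutant. TAS3A was 27.3-fold lower (22.4 to 33.7), TAS3B 11.3-fold lower (2.66 to 101) and TAS3C 9.18-fold lower (3.18 to 36.2). Only TAS3A of the 3 members with 50 reads in either library was called lower, and 0 were called higher. TAS3B and TAS3C lacked the reads for a call. Of 736 loci 14.3% were called lower and 13.3% higher. MIR390A was 1.54-fold lower (1.44 to 1.65) and MIR390B 1.58-fold lower (1.48 to 1.70) on table totals. That direction flipped with miRNA-gene reads as the scale, which gave 1.12-fold and 1.09-fold higher.

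Decay was also impaired without RDR6, in the triple mutant against rdr6-11. TAS3A was 4.69-fold higher in the triple mutant (2.94 to 7.80). It was the 1 member called, out of 3 with 50 reads in either library, and 0 members were called lower. Of 718 loci 16.4% were called higher and 0.418% lower. The call was lost with median-of-ratios scaling, with TMM scaling and with totals that leave out small RNA and organelle classes, under all of which TAS3A stayed at least 3.56-fold higher. TAS3B and TAS3C were each 1.50-fold lower, with intervals that hold 1 (0.172 to 17.9 and 0.355 to 7.22). MIR390B was 1.15-fold higher (1.07 to 1.24) on table totals, with folds of 0.873 to 1.68 across the scalings. MIR390A was 1.15-fold higher (1.07 to 1.23) as well, and 0.956-fold and 0.870-fold with TMM scaling and with the reduced totals, in that order. TAS2 was the other TAS locus called higher (5.89-fold, 3.87 to 9.31). Over all 8 members the median log2 fold in the 4 comparisons, in the order given, was 0.86, -2.11, -1.59 and 0.79, against 0.25, 0.02, 0.22 and 0.42 over the 5402 loci with 10 reads in any library. Over the members with 50 reads in either library, which leaves out the ARF genes, it was -1.89, -4.34, -0.66 and 0.20. All loci with 50 reads in either library gave -0.45, -0.04, 0.40 and 0.15. The sign of the first median thus depends on the ARF genes with few reads. In the triple against the double mutant all 8 members were lower on table totals, of which MIR390A, MIR390B and ARF2 were higher with miRNA-gene reads as the scale, and in the other comparisons members went both ways. These comparisons share libraries.

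**Figure D3:**
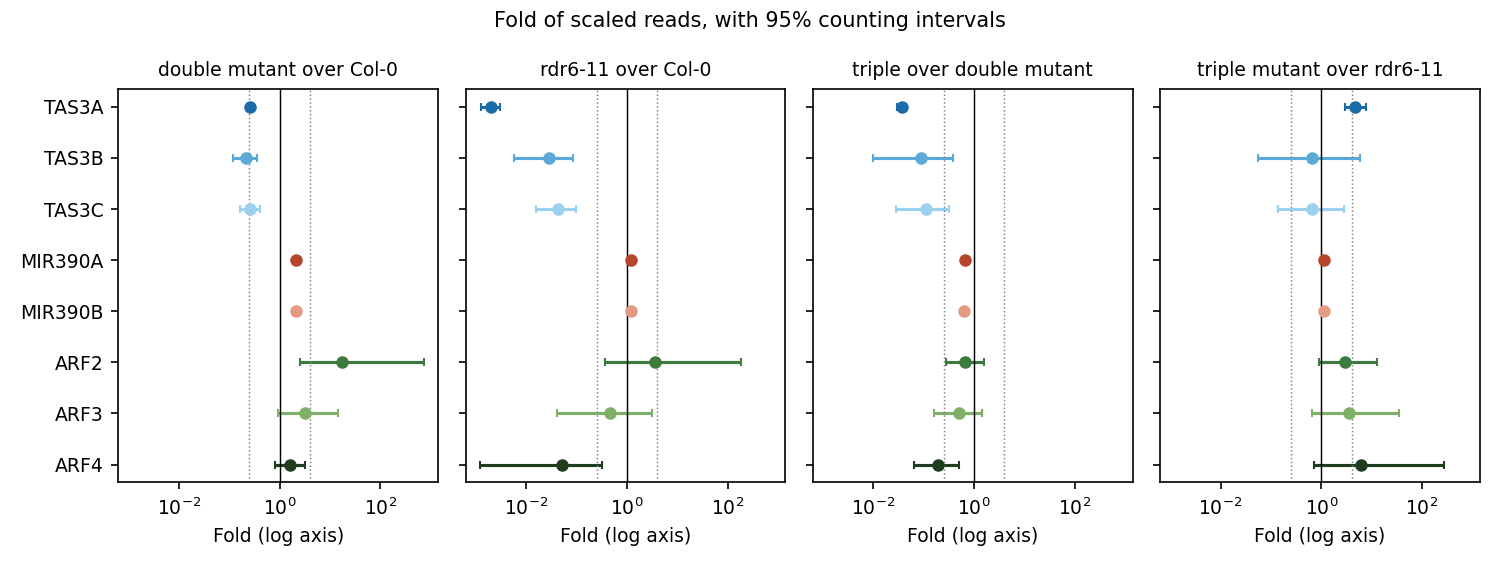
Fold of RPM for the 8 members in the 4 comparisons, on log axes, with 95% counting intervals; the solid line is no difference and dotted lines are 4-fold. TAS3A is 3.88-fold below Col-0 in the double mutant and 4.69-fold higher in the triple mutant than in rdr6-11.

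The target genes held few small RNA reads in any library, and small RNA reads at a gene do not measure its mRNA. ARF2 held 1 read in the wild type, 13 in ein5-1 ski2-3, 4 in rdr6-11 and 12 in the triple mutant (1.24, 20.9, 4.55 and 13.7 RPM). Both libraries with the decay mutations were above both without them. ARF3 held 4, 10, 2 and 7 reads (4.95, 16.1, 2.28 and 7.98 RPM), again with the decay mutants on top. ARF4 held 18, 22, 1 and 6 reads (22.3, 35.4, 1.14 and 6.84 RPM), and here both RDR6 libraries were above both libraries without RDR6. Per length the highest ARF value was 7.89 RPKM, at ARF4 in the double mutant, against 3311 for TAS3A in the same library.

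In the double mutant ARF2 was 16.9-fold higher than in Col-0 (2.54 to 718). ARF3 was 3.25-fold higher (0.938 to 14.2) and ARF4 1.59-fold higher (0.814 to 3.14), both with intervals that hold 1. In rdr6-11 ARF4 was 19.6-fold lower than in Col-0 (3.09 to 815), while ARF2 (1 and 4 reads) and ARF3 (4 and 2 reads) could not be separated from no difference. ARF4 in the triple mutant also stood below the double mutant, 5.18-fold (2.04 to 15.6). ARF2 was 1.53-fold lower there (0.643 to 3.67), and higher with scaling to reads at miRNA genes. In the triple mutant against rdr6-11 each of the 3 genes had more reads, 3.00-fold for ARF2, 3.50-fold for ARF3 and 6.01-fold for ARF4, with intervals that hold 1 for each gene.

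Summed over the 3 genes the libraries, in the same order, held 23, 45, 7 and 25 reads. With decay impaired the sum was 2.54-fold higher than in Col-0 (1.51 to 4.41) and 3.58-fold higher in the triple mutant than in rdr6-11 (1.50 to 9.79). It was 3.57-fold lower in rdr6-11 than in Col-0 (1.48 to 9.86). Reads at all protein-coding genes were 1.89-fold and 1.65-fold higher in the first 2 of these comparisons, and 1.02-fold in the last. Of protein-coding reads the 3 genes took 0.0288% in the wild type (0.0182 to 0.0431) and 0.0386% in ein5-1 ski2-3 (0.0282 to 0.0517), a difference within counting error. They took 0.00792% in rdr6-11 (0.00319 to 0.0163) and 0.0172% in the triple mutant (0.0111 to 0.0254). For each TAS3 read there were 0.00224 ARF reads in the wild type and 0.0221 in ein5-1 ski2-3, and 0.226 and 0.229 in rdr6-11 and the triple mutant.

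**Figure D4:**
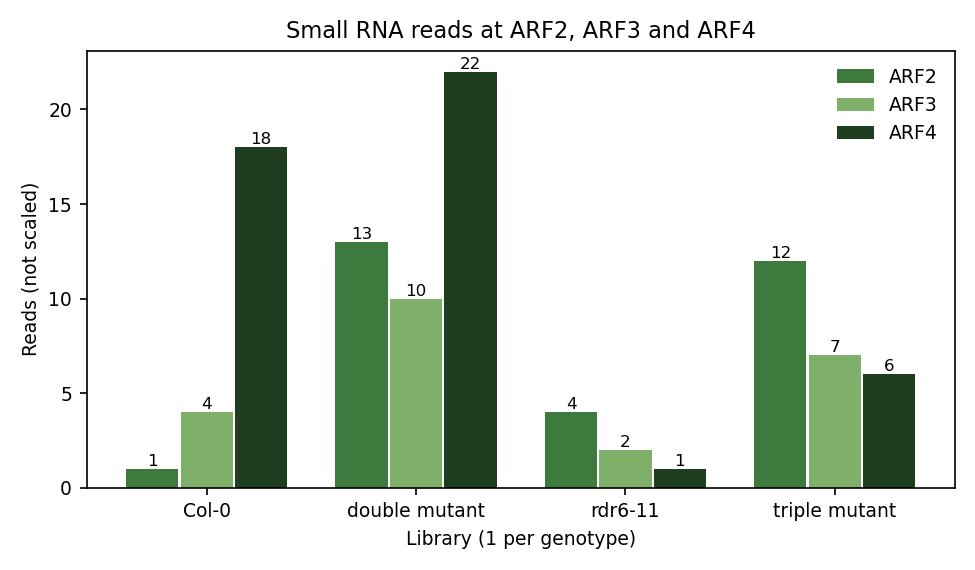
Unscaled reads at ARF2, ARF3 and ARF4 in the 4 libraries, with the count over each bar. ARF4 has most reads in Col-0 (18) and the double mutant (22) and 1 read in rdr6-11, while ARF2 and ARF3 are highest in the double mutant (13 and 10 reads).

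The 20 other auxin response factor genes summed to 58 reads in the wild type, 738 in ein5-1 ski2-3, 55 in rdr6-11 and 73 in the triple mutant, and 4 of them reached 10 reads in any library. In ein5-1 ski2-3 both of the 2 genes with 50 reads in it or Col-0 were called higher, where 26.8% of all such loci and 163 of 285 such protein-coding loci were. ARF6, a target of miR167, held 0 and 491 reads, at least 213-fold higher with the Col-0 count set to 3 reads, and ARF10, a target of miR160, held 10 and 158 reads (20.5-fold, 10.9 to 43.7). Both were called lower when the triple was set against the double mutant, ARF6 86.7-fold (43.6 to 202) and ARF10 22.3-fold (11.8 to 47.4). In that comparison 14.3% of 736 loci and 92 of 412 protein-coding loci with 50 reads in either library were called lower. ARF6 and ARF10 reached 50 reads in the double mutant only, so their higher and lower calls rest on the same library. ARF6, ARF10 and ARF8 held 491, 158 and 42 of the 738 reads in ein5-1 ski2-3, so the sum does not describe the other genes of the list.

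Of 11 genes that encode proteins of the branch, 2 reached 10 small RNA reads in any library. AGO7, which binds miR390, held 2, 6, 6 and 6 reads in the 4 libraries, SGS3 held 0, 3, 0 and 6, and DCL4 held 1, 1, 1 and 3. The 1 gene called was AGO1, the main miRNA Argonaute and itself a target of miR168, which held 12, 121, 1 and 8 reads. It was also the 1 gene of the 11 with 50 reads, which it reached in the double mutant only. AGO1 was 13.1-fold above Col-0 in the double mutant (7.24 to 26.1) and 21.4-fold below the double mutant in the triple mutant (10.5 to 50.6). Of all loci with 50 reads in either library 26.8% were called higher in the first of these comparisons. In the second 14.3% were called lower.

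Profiles over the 4 libraries were also compared with those of the 874 loci that held at least 50 reads in any library, by the root mean square difference of centred log2 RPM. The nearest to TAS3A were TAS1C (0.26), TAS2 (0.40), TAS1A (0.63), the pentatricopeptide repeat gene AT1G63070 (0.83) and the disease resistance gene AT5G38850 (0.96). The nearest to MIR390A was MIR390B (0.02), followed at 0.12 by AT1G11160, which encodes a WD40 repeat protein. The U2.5 and U6-26 small nuclear RNA genes and a chloroplast locus (ATCG00290) came next, at 0.12, 0.14 and 0.17. For ARF4, the ARF gene with most reads, the nearest were AT3G23690, a bHLH gene (0.35), AT1G12775, a pentatricopeptide repeat gene (0.47), AT1G12300, a tetratricopeptide repeat-like gene (0.48), and the auxin receptor genes AFB2 (0.53) and AFB3 (0.71). With 4 points a profile, such nearness is a description.

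**Figure D5:**
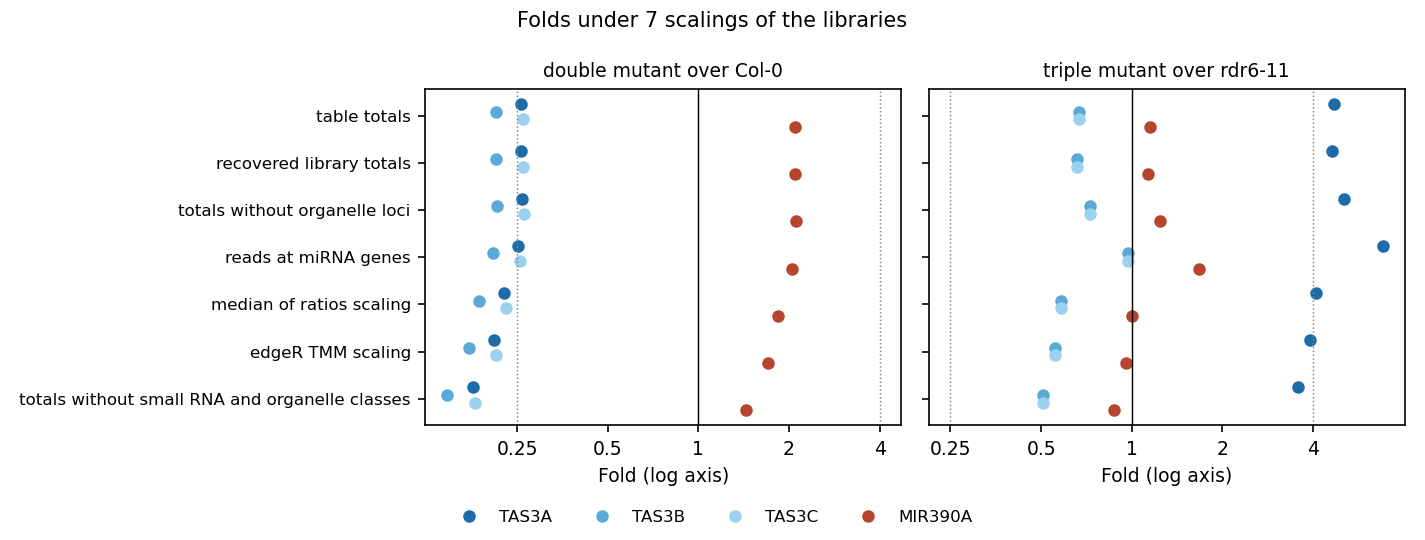
Folds of TAS3A, TAS3B, TAS3C and MIR390A in the comparisons of decay mutants with and without RDR6 under 7 scalings, on log axes with dotted lines at 4-fold; points of a setting are set apart vertically for sight. TAS3A lies 3.85-fold to 5.63-fold below Col-0 in the double mutant, and 3.56-fold to 6.84-fold higher in the triple mutant than in rdr6-11.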

How the data were processed

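The authors' deposited table gives whole-number counts of reads per locus for 4 small RNA libraries, and the authors' RPKM, per the file headers. Per the submitters' processing notes, the tools and build named are CASAVA 1.8.2, BWA and TAIR9. The sources used here do not give trimming, size range, use of strand or the handling of reads with several matches. Read size, strand and position are not in the table, which leaves siRNAs and degradation fragments unseparated. No other annotated gene overlaps a member in RefSeq.

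Counts were scaled to table totals of 621515 to 878632 reads. RPKM served for levels per length, for recovered totals and for implied lengths. A locus was called at 4-fold with 50 reads in the higher library and a pseudocount of 1 read. Printed folds of members carry no pseudocount, and log2 folds carry it. Fold intervals are exact conditional binomial and share intervals Clopper-Pearson, both 95%. PCR copies are not independent molecules, so they cover counting error only. A count of 0 was set to 3 reads for bounds.

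The members and lists were chosen with earlier results of these data known. All members are named, as are called loci of the lists and the 5 nearest profiles of TAS3A, MIR390A and the ARF member with most reads. Some list genes below the call are named as background. The call rule and intervals were tested on data simulated with counting error only, the error the intervals assume. Variation between plants or libraries was not part of that check. Tools were Python 3.11.15, scipy 1.17.1, R 4.3.3 and edgeR 4.0.16, the last for TMM factors only.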

Additional observations from a re-analysis of the deposited data

Results flagged for a closer look

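The change with the decay mutations went in opposite directions with and without RDR6 at TAS3A. The fold of the double mutant over Col-0 was 0.258 (0.246 to 0.271), and that of the triple mutant over rdr6-11 was 4.69 (2.94 to 7.80). For the 3 TAS3 loci in sum these folds were 0.258 and 3.52, and TAS3A held 103 of the 109 reads of that sum in the triple mutant. TAS3B and TAS3C had folds of 0.212 and 0.262 and then 0.667 at both, on 2 to 6 reads. The intervals of the second fold hold 1 (0.0557 to 5.83 and 0.139 to 2.81), so these loci cannot show whether they share the pattern. TAS4 went the other way from TAS3A in the first fold, 176 (88.8 to 408). Its second fold, 0 reads against 1, shows no direction (0 to 39.0). With 1 library per genotype the difference between these folds was not tested. TAS1A, TAS1B, TAS1C and TAS2 also lay below 1 in the first fold (0.297, 0.445, 0.394 and 0.302) and above 1 in the second (1.90, 14.5, 4.00 and 5.89), beyond counting error on table totals. At TAS1A the lower end of the second fold was 1.06, which the log2 shifts of median-of-ratios scaling (-0.19), TMM (-0.26) and totals without small RNA and organelle classes (-0.40) bring below 1. In the second fold TAS3A rests on 22 and 103 reads, in which siRNAs and degradation fragments are not separated. Protein-coding loci rose from 10.1% to 16.6% of reads between these libraries, and organelle loci from 22.1% to 28.3%; their part in the result was not tested.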

How the results depend on the processing

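Of 224 member folds recomputed under 6 other scalings or as a ratio of the authors' RPKM, 193 stayed within the counting interval, 31 moved out of it and 0 of the called ones changed direction. In the double mutant over Col-0, the 1 member called lower became 3 with median-of-ratios scaling, with TMM, with totals that leave out small RNA and organelle classes and at 2-fold. It became 0 with a minimum of 100 reads, at 8-fold, with a pseudocount of 5 reads, and when the interval end had to pass 4-fold. The 0 called higher became 1 (ARF2) with no minimum and 2 (the MIR390 genes) at 2-fold. The 3 called lower in rdr6-11 over Col-0 became 2 with a minimum of 100 reads and 4 with none, and stayed at 3 under the other alternatives. In the triple over the double mutant the 1 called lower became 3 with a minimum of 20 reads and 4 with none. In the triple mutant over rdr6-11 the 1 called higher became 0 with median-of-ratios scaling, with TMM, with totals that leave out small RNA and organelle classes, at 8-fold, and at the interval end. Scaling shifted log2 folds by up to -0.54 for the double mutant over Col-0, 0.21 for rdr6-11 over Col-0, 0.78 for the triple over the double mutant and 0.55 for the triple mutant over rdr6-11. No paired analysis was possible because the labels give no replicate numbers and the results come from no test. Leaving out a library would leave a genotype with none. At 1 to 22 reads the ARF genes are limited by depth.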

Other observations

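DCL1, the Dicer enzyme that makes miRNAs and itself a target of miR162, was chosen after its values were seen. It held 13 reads in the wild type, 33 in ein5-1 ski2-3, 0 in rdr6-11 and 17 in the triple mutant, with most reads in the double mutant and fewest in rdr6-11, as at AGO1.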
